A study of Mus musculus with 2 samples.

Results

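AP-1 and immediate early factors are transcription factors that a T cell makes or activates soon after its receptor is engaged. The members examined were Fos, Fosb, Fosl2, Jun, Junb, Jund, Batf, Egr1, Egr2 and Nr4a1, 10 of the 18193 genes named on the array. They were taken by symbol, and every probe set annotated to one of these symbols alone was used, which gave 14 of 45037 probe sets. The sample was 1 group of 5cc7 mouse T cells, which carry an antigen receptor specific for a moth cytochrome c peptide, MCC. Per the labels, RNA was prepared at the blast stage, day 5 after the cells were stimulated in vitro with MCC peptide, and was measured on 2 Affymetrix mouse 430 2.0 arrays, set 1 and set 2. There was no resting, unstimulated or earlier sample, so the values describe which factors were detectable at day 5 and say nothing of a rise or fall. The labels used here give no strain, age or purification step, and both arrays are described as experiment 1 of 2, so their spread may be technical.

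AP-1 is a dimer of basic leucine zipper proteins. A JUN protein pairs with another JUN, with a FOS protein or with BATF, whereas FOS proteins need a JUN partner to bind DNA. In T cells AP-1 joins NFAT at composite sites of cytokine genes, and BATF with a JUN protein joins IRF4 at other composite sites. The EGR zinc finger factors and the orphan nuclear receptor NR4A1 are induced by the same receptor signals, and most of these transcripts are known for fast induction and fast decay.

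Levels are deposited linear intensities, and are given for set 1 and then set 2, or as mean ± SD of the arrays (n = 2). A probe set counted as above background if both arrays exceeded a bound, 50.5 on set 1 and 54.7 on set 2. This bound is the 95th percentile of probe sets for genes of liver, eye, pancreas and kidney. Across all probe sets 38.9% passed, and 48.2% of all named genes had at least 1 that did. Genes of further organs, used as a check, passed in 9 of 48 cases (18.8%), of which the brightest were Mbp, whose locus also gives transcripts in lymphocytes, at 494 ± 31.3, Tg at 432 ± 18.7 and Pomc at 113 ± 7.42. A member that is no brighter than many of these genes is only weakly set apart from an absent transcript. Probes differ in how brightly they report a transcript, so no order of abundance between members is drawn.

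The promoters of 6 members are shown because they hold letters of short elements known from inducible genes. They can be set beside the day 5 calls. These 6 and the motif marked in Jun were chosen after the sequences were seen. Batf, with TGACG, and Fosl2, with the letters of an EGR site, hold such elements too but are not shown. The sequences are the 250 bases before the start of transcription in RefSeq, build GRCm38.p6, read 5′ to 3′ on the strand of the gene. For Egr2, which has 5 windows there, the first with the most matches is shown. Capitals mark TGACG or its reverse complement CGTCA, the core of the element bound by CREB and ATF proteins, except in Jun, where they mark TGACATCA, a variant AP-1 site.
Fos, chr12:85473640-85473889, plus strand: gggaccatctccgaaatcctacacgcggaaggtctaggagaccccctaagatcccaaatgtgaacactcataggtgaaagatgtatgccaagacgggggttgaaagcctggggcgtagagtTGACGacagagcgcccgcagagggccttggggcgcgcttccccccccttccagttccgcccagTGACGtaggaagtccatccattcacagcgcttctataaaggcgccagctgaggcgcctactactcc
Fosb, chr7:19310046-19310295, minus strand: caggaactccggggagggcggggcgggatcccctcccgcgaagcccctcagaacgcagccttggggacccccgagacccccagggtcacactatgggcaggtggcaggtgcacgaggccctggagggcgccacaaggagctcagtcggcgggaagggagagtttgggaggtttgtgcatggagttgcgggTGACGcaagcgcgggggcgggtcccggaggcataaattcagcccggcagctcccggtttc
Junb, chr8:84978749-84978998, minus strand: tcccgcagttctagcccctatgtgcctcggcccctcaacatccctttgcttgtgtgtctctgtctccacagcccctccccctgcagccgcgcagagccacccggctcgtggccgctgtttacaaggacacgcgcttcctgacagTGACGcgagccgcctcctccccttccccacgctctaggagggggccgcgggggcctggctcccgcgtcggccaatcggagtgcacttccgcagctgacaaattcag
Nr4a1, chr15:101266596-101266845, plus strand: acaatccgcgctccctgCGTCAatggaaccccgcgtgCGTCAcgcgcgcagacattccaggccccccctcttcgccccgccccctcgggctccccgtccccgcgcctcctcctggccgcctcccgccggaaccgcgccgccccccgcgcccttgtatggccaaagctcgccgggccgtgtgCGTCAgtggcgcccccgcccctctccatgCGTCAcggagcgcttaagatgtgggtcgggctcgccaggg
Egr2, chr10:67537619-67537868, plus strand: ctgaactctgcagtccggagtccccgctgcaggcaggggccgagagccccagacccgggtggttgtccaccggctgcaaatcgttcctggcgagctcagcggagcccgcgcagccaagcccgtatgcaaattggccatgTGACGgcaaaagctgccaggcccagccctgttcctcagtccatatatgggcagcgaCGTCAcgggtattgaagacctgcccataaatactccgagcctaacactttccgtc
Jun, chr4:95052223-95052472, minus strand: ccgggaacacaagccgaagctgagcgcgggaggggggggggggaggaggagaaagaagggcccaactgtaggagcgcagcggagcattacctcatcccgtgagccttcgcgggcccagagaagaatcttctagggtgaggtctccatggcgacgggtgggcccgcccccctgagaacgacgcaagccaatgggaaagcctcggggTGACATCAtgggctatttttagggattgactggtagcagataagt
Of the 10 members, 9 were matched to promoter windows in the RefSeq table, all but Egr1, whose promoter was not searched. Each window ran from 250 bases before to 50 after the start. Both strands were searched, and a gene counted if any of its windows held the motif. TGACG was present in 6 of 9 members, namely Fos, Fosb, Junb, Batf, Egr2 and Nr4a1, against 23.0% of all 27025 genes in the table. Egr2 had 5 windows, whereas the table held 32851 windows for its 27025 genes. Neither the number of windows nor base composition was matched, so no enrichment is drawn. The Nr4a1 window held 4 copies, the first bases of which lay at -233, -213, -69 and -40 from the start. The Fos window held 2, at -129 and -66. TGACATCA was found in Jun alone among the 9, at -45, against 4.18% of all genes. It was chosen after the Jun sequence was seen, so nothing is drawn from that match. The CArG box, bound by serum response factor, was found in Egr2 alone of the 9 members searched (1.81% of all genes). Sites outside the windows were not searched, so a member without a match, such as Fos, may hold one further away. GCGNGGGCG, the letters of an EGR site, occurred in Fosb, Fosl2 and Nr4a1 (6.27% of all genes). The full palindrome TGACGTCA, the AP-1 letters TGANTCA and the NR4A letters AAAGGTCA were in 0 of 9 member windows, against 2.03%, 8.97% and 1.70% of all genes. TGACGTCA contains TGACG, so those searches overlap. These are letter matches and say nothing of binding. Of the 6 members with TGACG, which include Batf but not Jun, 4 were above background at day 5 and Fos and Fosb were not. The searched members without it, Fosl2, Jun and Jund, were all above background, as were 48.2% of all named genes. No link between the letters and the calls is drawn.

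At day 5, 8 of the 10 members were above background, against 48.2% of all named genes. All 3 JUN genes, Batf, both EGR genes and Nr4a1 passed, and 1 of 3 FOS genes did. By probe set, 8 of 14 passed (57.1%), against 38.9% of all probe sets. Of the other 6, 4 were below the bound on both arrays and 2 exceeded it on a single array. The plot of member intensities shows these calls.

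**Figure D1:**
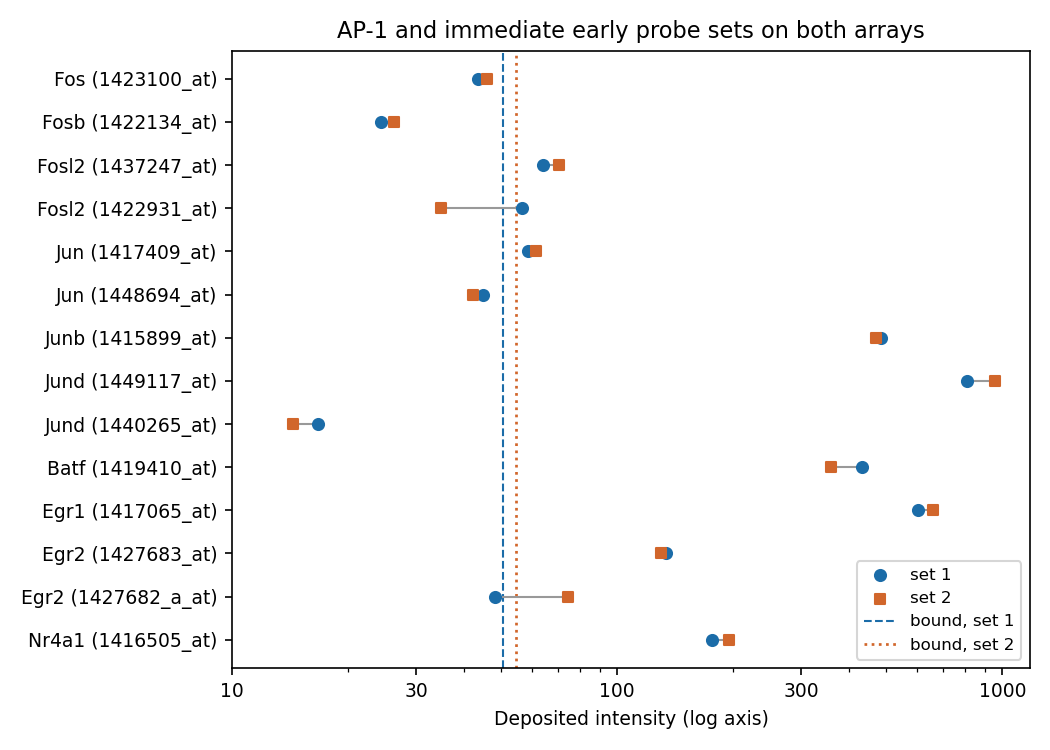
Deposited intensity on a log axis for each of the 14 member probe sets, with circles for set 1, squares for set 2 and a grey line joining the arrays; vertical lines are the bounds of 50.5 and 54.7. Junb, Batf, Egr1, Nr4a1 and 1 probe set each of Jund and Egr2 lie well to the right of both bounds on both arrays, whereas Fos and Fosb lie to the left of both.

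Among the JUN proteins, which can form AP-1 with or without a FOS partner, Jund was at 808.7 on set 1 and 955.2 on set 2 (882 ± 104, probe set 1449117_at). JUND is known as the JUN protein that many resting cells already hold. This probe set was brighter than 96.8% of all probe sets, and 0 of the 48 check genes reached it. The other Jund probe set, 1440265_at, was at 16.7 and 14.4, below the bound on both arrays. It is annotated to an expressed sequence tag, whereas the first is annotated to a RefSeq mRNA, and which transcripts either binds was not examined.

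Junb, which takes part in the control of helper T cell cytokines and pairs with BATF, was at 485.1 and 469.2 (477 ± 11.2). Both arrays placed it far above the bound, and 1 check gene, Mbp, was as bright. Its single probe set stood above 93.2% of all probe sets.

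Jun, the founding member of the family and a target of JNK, was at 58.6 and 61.4 with probe set 1417409_at (60.0 ± 1.98). It was at 44.7 and 42.3 with 1448694_at (43.5 ± 1.70). The first lay just above the bound on both arrays and the second below it on both, although both are annotated to the same RefSeq mRNA. Of the 48 check genes, 10 were at least as bright as the brighter Jun probe set. Jun was not above background with the bound at the 99th percentile, with a bound taken from the check genes, or when the median of its probe sets gave its level.

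Among the FOS proteins, Fos itself was at 43.6 and 45.9 (44.8 ± 1.63) and was below the bound on both arrays. Fos is a classical immediate early gene whose transcript is known to be short-lived. Its value was close to the bound: 14 of the 48 check genes were as bright, and it passed under the lower bounds tried, the 90th percentile of the off-tissue probe sets and the overall median. Fosb, a second inducible FOS gene, was at 24.4 and 26.3 (25.4 ± 1.34). It was below the bound on both arrays and under each of the 9 alternative settings, and 22 of 48 check genes were as bright. Neither result shows that the transcript was absent, since each gene rests on 1 probe set.

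Fosl2, which encodes FRA-2, a FOS protein that lacks the strong activation domain of FOS, was the FOS gene that passed. It was at 64.3 and 70.4 with probe set 1437247_at (67.4 ± 4.31). With 1422931_at it was at 56.5 and 34.9 (45.7 ± 15.3), above the bound on set 1 alone. For the brighter probe set 8 of 48 check genes were as bright. Fosl2 fell below the bound when the check genes set it or when the median of its probe sets was used.

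Batf was at 432.4 on set 1 and 357.9 on set 2 (395 ± 52.7). BATF has no activation domain of its own, forms AP-1 with JUN proteins and is needed for several helper T cell programmes. It lay above the bound under all 9 alternatives, above 91.5% of all probe sets, and 2 check genes were as bright.

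Egr1 was at 603.7 and 660.2 (632 ± 39.95), above 95.2% of all probe sets, and 0 of the check genes reached it. EGR1 is a zinc finger factor induced through the ERK pathway. Egr2, which with EGR3 is known to restrain T cell activation, was at 134.2 and 130.1 with probe set 1427683_at (132 ± 2.90). With 1427682_a_at it was at 48.0 and 74.6 (61.3 ± 18.8), above the bound on set 2 alone. Both Egr2 probe sets are annotated to the same GenBank record, yet 1 passed and the other did not.

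Nr4a1, which encodes NUR77 and is widely used as a reporter of recent receptor signalling, was at 175.8 and 195.0 (185 ± 13.6). Both arrays were above the bound, and 2 of 48 check genes were as bright. Egr1, Egr2, Nr4a1, Batf, Junb and Jund were above background under all 9 alternatives.

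**Figure D2:**
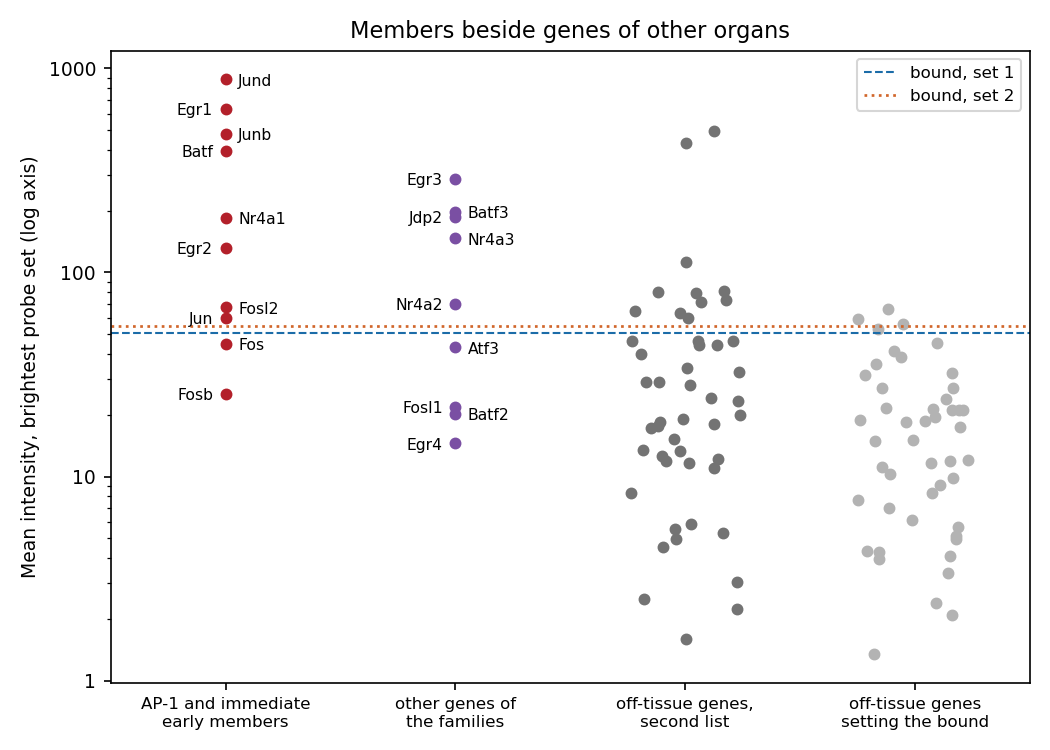
Mean intensity of the brightest probe set of each gene, on a log axis, for the 10 members, 9 other genes of the same families, 48 off-tissue check genes and the off-tissue genes that set the bound; each point is 1 gene and sideways scatter in the grey groups has no meaning. Jun and Fosl2 lie within the upper range of the check genes, and Jund and Egr1 lie above all of them.

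Probe sets of the same member did not give the same call. The 4 members with 2 probe sets, Fosl2, Jun, Jund and Egr2, each had exactly 1 above background. Over all genes with 2 probe sets, 27.6% had exactly 1 above and 56.1% had at least 1. Among genes with 1 probe set, 32.9% were above, and the 6 such members were Fos, Fosb, Junb, Batf, Egr1 and Nr4a1, of which the last 4 passed.

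Passing required both arrays to exceed the bound, which left out probe sets above it on a single array. Of the 8 member probe sets that passed, 0 were more than 2-fold apart. The share over all probe sets above the bound was 0.211%, so this count does not set the 8 apart. Their log2 difference, set 1 minus set 2 after the median of all probe sets above the bound was taken off, ran from -0.21 for Jund to 0.30 for Batf. Its median size was 0.10, against 0.14 over all probe sets above the bound, a comparison not matched for intensity. Over all probe sets that median was 0.19 between 64 and 128, and 0.14 between 128 and 256. It was 0.11 between 256 and 512, and 0.096 between 512 and 1024. The SD of the log2 difference among all probe sets of like intensity was 0.19 between 256 and 512, where Batf lay. It was 0.17 between 512 and 1024, where Jund lay. Batf and Jund therefore differed between the arrays by more than that SD, and the other 6 by less. Of the 6 member probe sets that did not pass, 1422931_at of Fosl2 differed by 0.72 and 1427682_a_at of Egr2 by -0.61, both beyond the SD of 0.52 between 32 and 64. The other 4 lay within the SD of their range, with differences of -0.05 for Fos, -0.08 for Fosb, 0.11 for 1448694_at of Jun and 0.24 for 1440265_at of Jund. Over all 14 member probe sets the median size was 0.11. With 1 array of each set no difference could be tested.

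**Figure D3:**
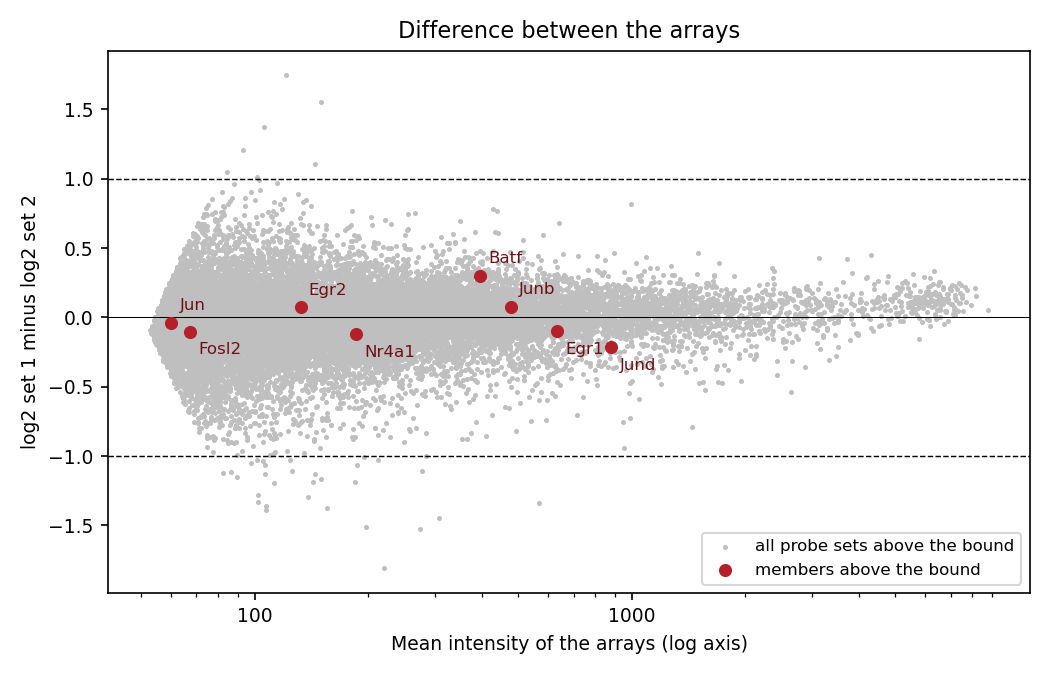
Log2 intensity of set 1 minus that of set 2, centred on the median, against mean intensity on a log axis for all probe sets above the bound (grey) and the 8 member probe sets above it (red); dashed lines mark a 2-fold difference. The members lie between -0.21 and 0.30, inside the grey cloud.

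Of the 9 other genes of these families, 5 were above background (55.6%, against 48.2% of all genes). By probe set, 5 of 19 passed, against 38.9% of all probe sets. Egr3, the close relative of Egr2, was at 256.8 and 318.7, and its second probe set was at 28.5 and 69.1. Batf3, best known from dendritic cells, was at 220.5 and 174.5. Jdp2, which dimerises with JUN and represses AP-1 sites, was at 168.0 and 207.5 with 1 of 2 probe sets above. Nr4a3 was at 137.2 and 156.6 with 1 of 3 probe sets above, and Nr4a2 at 57.0 and 83.5 with 1 of 6. Fosl1, which encodes FRA-1, was at 19.4 and 24.6, below the bound on both arrays. Batf2 at 31.9 and 8.6, Egr4 at 4.0 and 25.1, and Atf3, a stress-induced partner of JUN, at 34.0 and 51.8 were below it too. With these relatives counted, all 3 JUN and all 3 NR4A genes passed with at least 1 probe set, as did 48.2% of all named genes. Most probe sets of Nr4a2 and Nr4a3 were not above the bound. The Nr4a2 probe set that passed was close to it on set 1, and 8 of 48 check genes were as bright. The FOS, BATF and EGR genes lay on both sides of the bound.

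Other basic leucine zipper factors that can pair with the members or compete for like sites passed in 15 of 17 cases. Over all named genes the share was 48.2%. By probe set 33 of 49 passed, against 38.9% of all probe sets. Bach2, a repressor that competes with AP-1 at its sites in T cells, was at 1307.0 and 1304.5. The group also held Creb1 at 961 ± 21.4, a factor of the TGACG element, Atf4 at 689 ± 40.7 and Maf at 601 ± 90.2. Maff and Creb5 were not above background. All 6 NFAT and IRF genes passed, with 15 of 23 probe sets above the bound. They included Nfatc1 at 622 ± 29.5, Nfatc3 at 561 ± 21.1 and Irf4, the partner of BATF, at 410 ± 25.4. Nfat5 was at 417 ± 24.5 with 3 of 6 probe sets above.

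Genes of the kinase cascades and factors that induce the members passed in 22 of 24 measured cases, against 48.2% of all named genes. By probe set 55 of 78 passed, against 38.9% of all probe sets. A gene with more probe sets has more chances to pass. Among all named genes, 32.9% of those with 1 probe set passed and 56.1% of those with 2. Rasgrp1, which links diacylglycerol to RAS in T cells, was at 1041.6 and 1052.4. Elk4, a partner of serum response factor, was at 796 ± 159 with 2 of 4 probe sets above. Malt1 was at 764 ± 68.5 and the p38 kinase gene Mapk14 at 606 ± 1.48. Elk1 and Mapk10 were not above background. Of the list of proteins that restrain the members, 14 of 15 passed, a count that includes Cops5, known also as a coactivator of JUN. By probe set 23 of 31 passed. Ndfip1, an activator of the ligase ITCH that degrades JUN proteins, was at 1862.7 and 2341.2. Nab1, a corepressor of EGR proteins, was at 1027 ± 40.4 and the RAS inhibitor gene Rasa1 at 776 ± 22.3. Cops5 was at 428 ± 38.04 with 1 of 2 probe sets above. Nf1 was not above background.

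**Figure D4:**
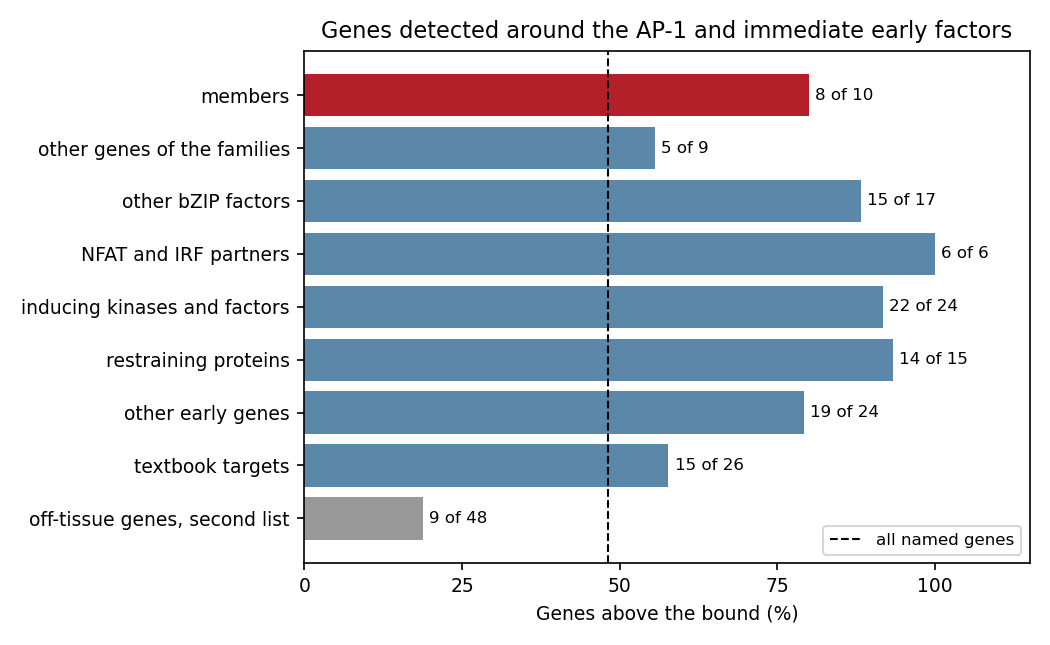
Share of the measured genes of each list with at least 1 probe set above background, with counts at the bar ends. The dashed line is the share of all named genes, 48.2%. The members (8 of 10) and the lists of partners, inducers and restraining proteins lie to the right of the line, and the off-tissue check genes (9 of 48) to the left.

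Other early genes, induced by receptor or serum signals in many cells, passed in 19 of 24 cases, against 48.2% of all named genes. By probe set 31 of 43 passed, against 38.9% of all probe sets. Nfkbia, which encodes the inhibitor of NF-kappaB, was at 4078 ± 36.5, the antiproliferative gene Btg2 at 1674 ± 158, the phosphatase gene Dusp2 at 680 ± 38.04 and Klf6 at 654 ± 18.6. Arc at 5.1 and 8.9, Ccn1 at 23.6 and 20.9 and Klf4 at 21.1 and 14.1 were not above background. Genes known as targets of AP-1, BATF, EGR or NR4A factors in T cells passed in 15 of 26 cases. That is 57.7%, near the 48.2% of all named genes. With the bound from the check genes 11 passed, against 38.6% of all named genes. At the 90th percentile 19 passed, against 56.0%. By probe set, under the main bound, 27 of 42 of these targets passed. The brightest were Dgka at 2578 ± 146 and Cblb at 2043 ± 147, both known as EGR targets that dampen receptor signals, then Ctla4 at 1836 ± 12.1 and Ndrg1 at 834 ± 108. Ccnd1, Csf2 and Ifng were not above background, at 49.2 ± 4.67, 6.80 ± 0.71 and 25.6 ± 2.55.

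All 12 measured T cell markers were above background, led by Cd3d and Thy1, with summed intensities of 23730.5 on set 1 and 22940.9 on set 2. For this count and the marker counts below, the share of all named genes was 48.2%. B cells and myeloid cells also express many of the members. B cell markers passed in 7 of 11 cases (63.6%), with sums of 3855.2 and 3408.9, of which Ighm gave 2580.6 and 2163.0. Those are the values of the brightest Ighm probe set, and 5 of its 11 probe sets were above the bound. Cd22, at 228.1 and 213.9, passed with 1 of 2 probe sets. The other B cell markers above background were Ms4a1 at 389.7 and 365.1, Cd79b at 166.2 and 164.5, Blnk at 132.6 and 136.7, Cd79a at 118.4 and 98.4 and Blk at 63.6 and 87.2. Pax5, Ebf1, Cr2 and Fcer2a were not above background. Myeloid markers passed in 2 of 15 cases (537.6 and 701.4), NK cell markers in 2 of 8 (2092.2 and 2238.7, mostly Klrd1), granulocyte markers in 1 of 12 (304 and 270.5) and stromal markers in 3 of 14 (614.3 and 578.9). None of these marker genes was listed at 0. In bulk RNA the cells that gave a member's signal cannot be told apart, and the part of other cell types in the values was not tested. Across all probe sets above the bound, which are not independent, Pearson's r of log2 intensity between the arrays was 0.985, and array medians were 36.4 and 37.9.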

How the data were processed

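Gene expression was measured on 2 arrays of 1 group. The deposited values are linear intensities, 1 per probe set and array; their range showed the scale, and the background correction, probe summary and scaling by the authors are not stated in the sources used here. Of the probe sets, 64 controls were left out. Names came from GEO's platform annotation, with probe sets of several symbols (932) or none (9160) unnamed; all 10 members matched the RefSeq gene table of GRCm38.p6 by Entrez identifier, with 0 symbols changed. Promoter sequences are RefSeq's of that build.

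The bound was the 95th percentile of 63 off-tissue probe sets on each array. A gene passed when at least 1 probe set exceeded the bound on both arrays, and its brightest probe set gave its level. Intensities under 1 were set to 1 before log2, and the median difference of -0.03 was taken off. The number of arrays limits the precision, and with 1 group there was no test.

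The members and lists were chosen with earlier results of these data known. The rule for named genes took every member, every other gene of its families, up to 4 of the brightest genes above the bound and up to 3 below it in alphabetical order from each further list, and up to 2 of each marker list; all 11 B cell markers were named, beyond this rule. The calling steps were checked on simulated arrays with known answers, from which no value is reported. Python 3.11.15, numpy 2.4.6, pandas 2.3.3 and matplotlib 3.10.9 were used.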

Additional observations from a re-analysis of the deposited data

How the results depend on the processing

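The number of members above background was 8 with quantile normalization, without probe sets ending in _x_at, _s_at or _a_at, and on either array alone. It was 9 under a bound at the 90th percentile and under one at the overall median, where Fos passed. At the 99th percentile it was 7, where Jun did not pass. It was 6 with the bound from the check genes or with the median over probe sets, where Jun and Fosl2 did not pass. The share of all named genes moved as well, from 48.2% to 56.0% at the 90th percentile and 55.4% at the overall median. That share was 45.2% at the 99th, 38.6% with the check genes and 41.4% with the median over probe sets. It was 48.2% with quantile normalization and 43.4% without the _x_at, _s_at and _a_at probe sets. On set 1 alone it was 51.2%, and on set 2 alone 50.5%. With the median over probe sets the level of Jund was 449, of Egr2 96.7, of Fosl2 56.5 and of Jun 51.8. The median size of the difference between the arrays ran from 0.097 to 0.105 over the alternatives. Among the other lists, the bounds at the 90th percentile and at the overall median both gave 6 myeloid, 3 granulocyte and 5 stromal genes. Granulocyte genes numbered 0 at the 99th percentile and 0 with the bound from the check genes, which left 1 stromal gene. On single arrays myeloid genes numbered 3 to 4 and granulocyte genes 2 to 2. Without the _x_at, _s_at and _a_at probe sets there were 3 other family genes, 1 NK cell gene and 1 stromal gene, and the median over probe sets also gave 3 other family genes. The cause of these shifts was not tested. No paired analysis was possible because the arrays form 1 group.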

Other observations

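Several targets of the members were chosen after their values were seen. Il2, whose promoter holds joint NFAT and AP-1 sites, was at 23.6 on set 1 and 8.1 on set 2, and Il4 at 27.0 and 21.1, both below the bound on both arrays. Of the other cytokine genes in that list, Tnf at 137.4 and 113.1 and Il17a at 143.0 and 81.8 were above it. On set 2 Il17a was below the bound of 92.2 that the check genes gave. Il3, Il5, Il10, Il13, Il21, Csf2 and Ifng were not above background. Fasl, a death ligand known as a target of EGR2 and EGR3, was at 352.4 and 306.5, and Il2ra, the high-affinity chain of the interleukin 2 receptor, at 412.2 and 461.9. Socs3, a feedback inhibitor of cytokine signals, was at 440.2 and 432.7. Prdm1, which BATF with IRF4 is known to control, was at 165.7 and 158.9. In the other early genes Myc was at 612.6 and 615.0, Ier2 at 572.8 and 597.2, and Cd69 at 407.1 and 465.7. The ERK and JNK phosphatase gene Dusp1 was at 75.6 and 72.9. That is below the bounds of 82.7 and 92.2 that the check genes gave, and 6 of 48 check genes were as bright. Plk2 and Plk3 of the same list were not above background.

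The arrays were far apart for some probe sets of these families below the bound. For Fosl1, 1417487_at was at 4.4 on set 1 and 34.8 on set 2, and Egr4 was at 4.0 and 25.1. Batf2 went the other way, at 31.9 and 8.6. Among all probe sets with a mean between 8 and 16, 46.5% were more than 2-fold apart, and between 16 and 32, 22.9% were.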
